A study of Homo sapiens with 12 samples.

Results

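SNU449-Rego cells, which carry intact Axl and were selected for resistance against Regorafenib (Rego), were compared with SNU449-Axl-KO-ctrl cells, which lack Axl and were labelled as naive to the drug. Both populations derive from SNU449, a mesenchymal-like human hepatocellular carcinoma (HCC) cell line. By its label, each differs from the starting line in 1 way, the former by Rego resistance and the latter by loss of Axl. The comparison holds the 3 SNU449-Rego and the 3 SNU449-Axl-KO-ctrl libraries, 6 of the 12 libraries of the study, and was chosen by these labels and not by measured values. The other 6 libraries come from the starting line (SNU449-ctrl, labelled WT and naive) and from Axl-deficient resistant cells (SNU449-Axl-KO-Rego).

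Axl had been removed by CRISPR/Cas9-mediated editing, and whether the edited line is a single clone is not given in the sources used here. Resistant cells had been raised by stepwise increasing doses of Rego over weeks and are labelled as long-term treated. A growth note in the labels says that derived cells received Rego after each passage, without saying whether the naive controls were excepted. RNA was sequenced from the 3′ ends of mRNAs with QuantSeq. The libraries of a group are technical triplicates of 1 cell population, so that all errors and p-values below cover the spread between libraries only. Rego resistance, loss of Axl and any other divergence of these populations cannot be told apart in a comparison that changes both labels at once.

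Axl is a receptor tyrosine kinase of the TAM family, together with Tyro3 and MerTK, and is activated by its ligand Gas6. In liver cancer, Axl is known for its association with epithelial to mesenchymal transition (EMT), invasion and tolerance against kinase inhibitors. Rego is a multikinase inhibitor that targets receptors for VEGF, PDGF and FGF, the receptors KIT and RET, and RAF kinases.

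The level of a gene is given here as log2 of the value that the authors deposited per library, and differences are SNU449-Rego minus SNU449-Axl-KO-ctrl. These values flatten at low expression. A doubling of the authors' mean normalized count raised the level by 0.138 around the lowest counts (from the genes at 1 to 4 counts to those at 4 to 16), by 0.459 at 64 to 128 counts and by 0.928 at 1024 to 2048 counts. A difference of 1 in a weakly expressed gene therefore stands for far more than a doubling of its RNA. To give a sense of the size, the level of each group was also read as a normalized count from the relation between level and mean count over 4133 genes whose libraries lay within 0.3 of each other, and a fold in counts is given only where both groups were read at 5 counts or more. No library value was below 33, so that a gene without detectable RNA still has a level of about 5 to 6.

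As a check of the labels, AXL (ENSG00000167601, chromosome 19, 41219223 to 41261766 on GRCh38) had levels of 10.20, 9.67 and 10.24 in the SNU449-Rego libraries and of 6.25, 6.78 and 6.21 in the SNU449-Axl-KO-ctrl libraries. All libraries with intact Axl were high and all edited ones low. The difference was 3.62 (SE 0.21, adjusted p = 8.71e-06 from limma), and the counts read from these levels were 1067 against fewer than 12, a 92.8-fold difference. Remaining reads of AXL do not say whether protein is made, since 3′ reads do not cover an edit further upstream. The other members of the TAM family moved little. GAS6, the ligand, had levels of 7.60, 7.36 and 7.71 in SNU449-Rego and of 7.55, 7.79 and 7.44 in SNU449-Axl-KO-ctrl, and the groups overlapped (difference -0.04, SE 0.16, adjusted p = 0.916 from limma). MERTK differed by -0.15 at a mean of 5.37 counts, TYRO3 by 0.00 and PROS1, a second ligand of the family, by -0.08, and none of these passed the test.

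Markers of the cell line fitted a mesenchymal-like carcinoma line with little hepatocyte character in both groups. VIM, an intermediate filament of mesenchymal cells, had a mean of 2.03e+04 normalized counts and levels of 14.33 in SNU449-Rego and 14.35 in SNU449-Axl-KO-ctrl, and ZEB1, CDH2 and FN1 were present without a call. The hepatocyte markers ALB, APOA1, HNF4A, TTR and SERPINA1 and the epithelial markers CDH1 and EPCAM are not among the genes tested, and AFP reached only 4.87 counts. Defining markers of leukocytes (PTPRC, CD3E), endothelium (PECAM1, VWF, CDH5) and stellate cells (DES, LRAT) are not among the genes tested either, and the stellate marker RGS5 had 37.4 counts. In the wider list of 19 such markers, 6 were tested and limma called 0 with the block. Of these, 1 had an unadjusted p under 0.05, and LUM, a proteoglycan of stroma, was called lower without the block (difference -0.38). Over all genes, 2758 of 13955 had such a p, and 12.1% were called lower without the block.

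Of the 13955 genes tested, 430 (3.08%) passed an adjusted p of 0.05 in limma with the replicate number as a block, which is referred to as called below. In SNU449-Rego, 194 (1.39% of the genes tested) were higher and 236 (1.69%) lower. Most called genes changed moderately, with a median difference of 0.784 among those higher and 0.843 among those lower in size, and 125 of the 430 differed by at least 1. Of the called genes, 397 code for proteins and 26 are long noncoding RNAs. Non-overlap of the libraries was common and says little by itself, since the 3 libraries of one group all lay above those of the other in 39.8% of all genes tested. Without the block 3332 genes (23.9%) were called, of which 1637 were higher and 1695 lower, and these included 429 of the 430. With both libraries of any 1 replicate number left out, 1 residual degree of freedom remained and limma called 0 genes, with 1347 to 1945 at an unadjusted p under 0.05.

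**Figure D1:**
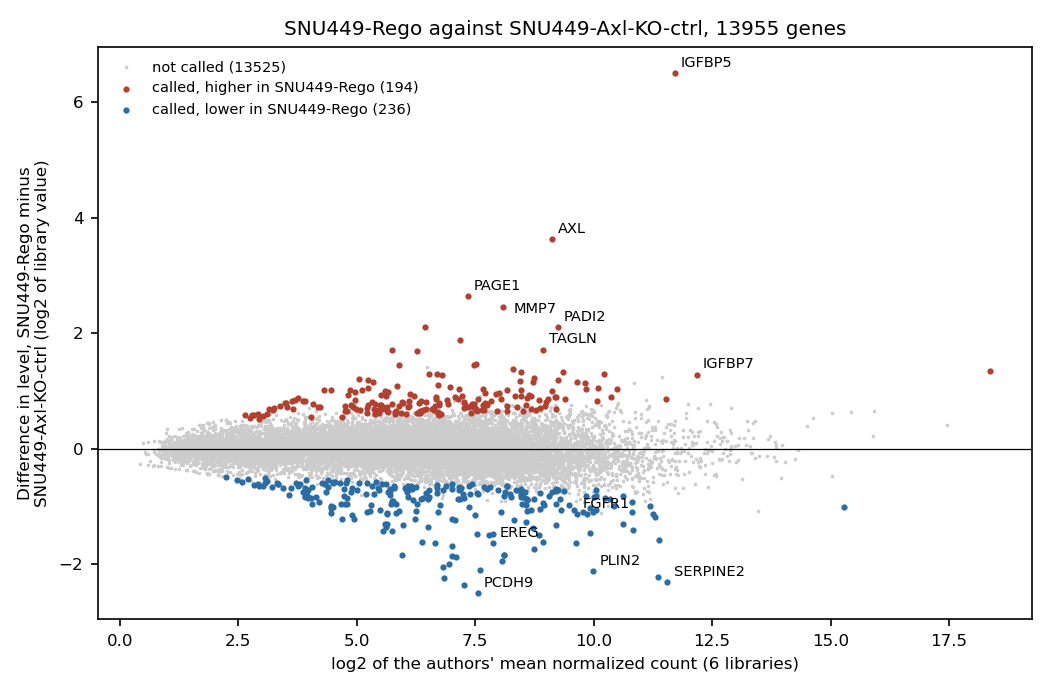
Difference in level between SNU449-Rego and SNU449-Axl-KO-ctrl (vertical axis, log2 of the library value) against log2 of the authors' mean normalized count (horizontal axis), 1 point per gene. Red points are the 194 genes called higher in SNU449-Rego, blue points the 236 called lower and grey points the genes not called. IGFBP5 lies far above AXL at 3.62 and all others, and the spread of the grey points narrows toward low counts because the scale flattens there.

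The split into higher and lower genes depends on how the libraries are scaled. The 27 spike-in RNAs, which were added as a reference of known amount, lay higher in SNU449-Rego, by 0.22 between library medians and by a median of 0.16 per RNA. When each library was centred on them, the median of all genes moved to -0.22, and 1451 genes were called, of which 108 (7.44%) were higher and 1343 lower, against 45.1% higher in the deposited scaling and 51.4% after upper-quartile rescaling. None of the 430 called genes could change sign under these scalings. Each scaling moves all differences by the same amount, and the smallest difference among called genes was 0.497 in size. The differences below are relative to the median gene, and whether the cells of both populations held the same amount of mRNA was not tested.

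Rise and fall below mean a level in SNU449-Rego above or below that in SNU449-Axl-KO-ctrl, and neither population derives from the other. The largest rise was that of IGFBP5, which codes for a secreted protein that binds insulin-like growth factors. Its levels were 12.36, 12.99 and 11.95 in SNU449-Rego and between 5.39 and 6.41 in SNU449-Axl-KO-ctrl, the latter at the floor of the scale. The difference was 6.50 (SE 0.30, adjusted p = 1.46e-06), and the SNU449-Rego level corresponds to 5901 normalized counts against less than 5. Behind IGFBP5 and AXL, the cancer-testis antigen PAGE1 had levels of 8.54, 8.82 and 8.12 against 5.81, 5.52 and 6.23, again from the floor to about 293 counts. MMP7 codes for matrilysin, a secreted metalloproteinase made mostly by epithelial cells. Its libraries were tight in this table, with 9.09, 9.10 and 9.13 in SNU449-Rego and 6.66, 6.66 and 6.63 in SNU449-Axl-KO-ctrl, a difference of 2.46 (SE 0.14, adjusted p = 8.71e-06) or 22.9-fold in counts. The same libraries spread more in the table over 12 libraries, with an SD of 0.31 and 0.34.

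The remaining genes among the 12 largest rises have diverse roles. FXYD6, a regulator of the sodium pump, had levels of 7.81, 8.11 and 8.01 against 6.02, 5.73 and 5.83 (difference 2.11, SE 0.15). PADI2, an enzyme that converts arginine in proteins to citrulline, rose by a similar amount with far more scatter, from 7.54, 6.87 and 8.49 in SNU449-Axl-KO-ctrl to 9.83, 10.50 and 8.88 in SNU449-Rego (difference 2.10, SE 0.42, adjusted p = 0.022). Its lowest resistant library lay only slightly above its highest Axl-deficient one. RIPK4, a kinase of epidermal differentiation, stood at 8.41 to 8.42 against 6.54 in every library, a 16.3-fold difference in counts, and spread more in the table over 12 libraries (SD 0.11 and 0.14). TAGLN, an actin-binding protein of smooth muscle and mesenchymal cells, reached 9.54, 8.67 and 9.74 against 7.38, 8.25 and 7.18 (difference 1.71, SE 0.31, adjusted p = 0.0146), and it was not called in the fit over 12 libraries. Its libraries approached each other in replicate 2. TSTD1, a sulfurtransferase, rose by 1.70 and TFAP2B, a transcription factor of the AP-2 family, by 1.69, both from near the floor. ANXA3, a calcium-dependent membrane-binding protein, and SDC2, a heparan sulfate proteoglycan of the cell surface, each rose by 1.46, which read as 5.86-fold and 5.82-fold in counts.

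Among the genes that fell, PCDH9, a protocadherin, had levels of 6.32, 6.30 and 5.36 in SNU449-Rego and of 8.16, 8.18 and 9.14 in SNU449-Axl-KO-ctrl (difference -2.50, SE 0.30, adjusted p = 0.00125). LAMA4, which codes for a laminin chain of vascular and mesenchymal basement membranes, stood at 6.25, 6.21 and 6.04 against 8.44, 8.48 and 8.65 (difference -2.35, SE 0.15, adjusted p = 9.37e-06). Both were near the floor in SNU449-Rego and at about 294 and 302 counts in SNU449-Axl-KO-ctrl. SERPINE2, a secreted inhibitor of thrombin and plasminogen activators also known as protease nexin-1, was abundant in both groups. Its levels were 10.04, 9.83 and 9.83 against 12.07, 12.28 and 12.28 (difference -2.31, SE 0.19, adjusted p = 7.92e-05), or 962 against 5014 counts. TGFBI, a matrix protein induced by TGF-beta, was similarly abundant, with 10.00, 9.32 and 9.11 against 11.17, 11.85 and 12.06 (difference -2.22, SE 0.29, adjusted p = 0.002).

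PLIN2, a coat protein of lipid droplets, fell from 10.75, 10.50 and 10.85 in SNU449-Axl-KO-ctrl to 8.53, 8.77 and 8.43 in SNU449-Rego (difference -2.12, SE 0.19, adjusted p = 0.000139), a 5.37-fold difference in counts. PPP2R2C, a regulatory subunit of protein phosphatase 2A, was between 5.98 and 6.07 against 8.21, 8.30 and 8.25, and NRK, a kinase of the germinal center kinase family, at 6.25 or lower against 8.13, 8.13 and 8.38. Each of these 2 genes was thus near the floor in all resistant libraries and above 200 counts in the Axl-deficient controls. The other falls among the 12 largest were those of UPK1B, a membrane protein of urothelium (-2.10, 17.2-fold in counts), CP, which codes for the copper-carrying plasma protein ceruloplasmin (-2.00), and CYP24A1, the enzyme that inactivates vitamin D (-1.94, 9.21-fold). CCBE1, a secreted protein needed for lymphatic growth (-1.88, 18.1-fold), and COL11A1, a chain of a fibrillar collagen (-1.86), complete these 12 genes. COL11A1 varied most between libraries, with 6.32, 6.69 and 5.32 against 7.75, 7.39 and 8.77 (SE 0.37, adjusted p = 0.0204).

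**Figure D2:**
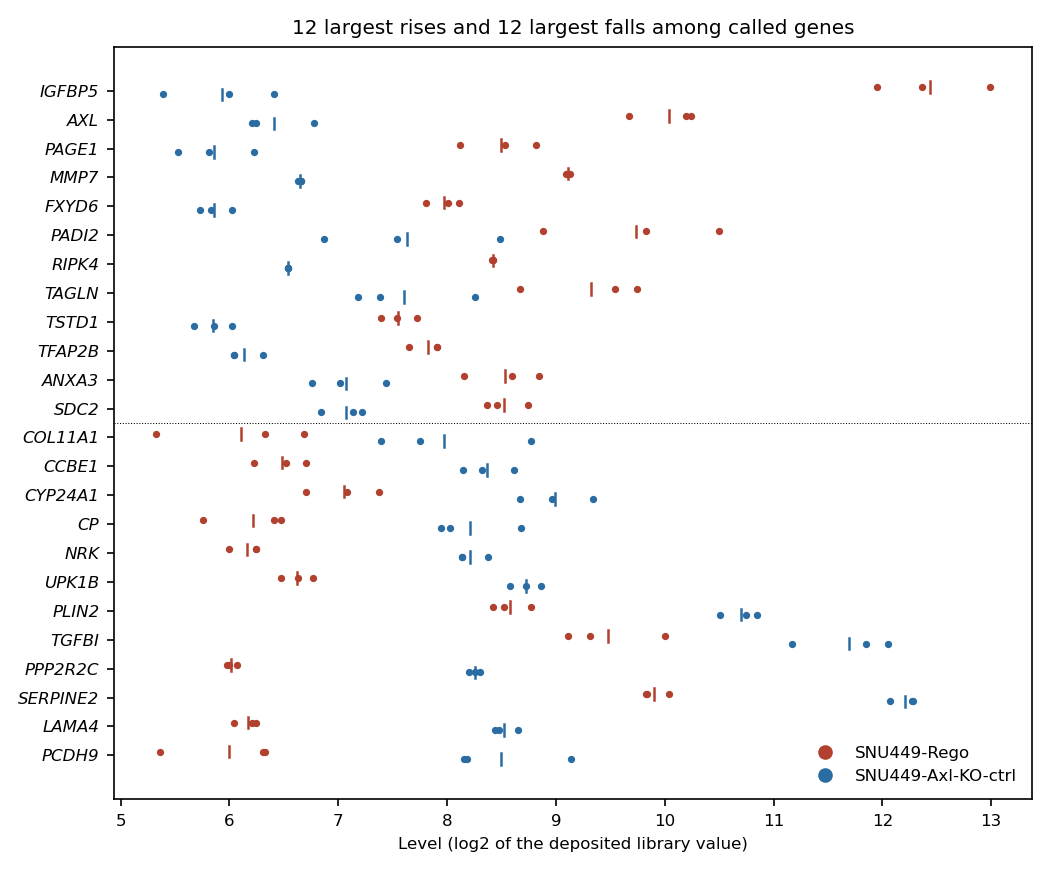
Levels (log2 of the deposited library value) of the 12 genes with the largest rise (above the dotted line) and the 12 with the largest fall among called genes whose libraries do not overlap. Each point is 1 library, vertical bars are the means of 3 libraries, red is SNU449-Rego and blue SNU449-Axl-KO-ctrl. IGFBP5 spans the widest gap, MMP7 and RIPK4 have the tightest libraries in this table, and the libraries of PADI2 and TAGLN nearly meet.

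Both populations have their own distance from the starting line, so the levels of the named genes were also read in SNU449-ctrl and SNU449-Axl-KO-Rego, in a table over all 12 libraries. This table has its own scale with a lower floor, and its values are given as means ± SD (n = 3 libraries). IGFBP5 was high in SNU449-Rego alone, at 12.5 ± 0.78 against 4.64 ± 0.15 in SNU449-ctrl, 4.52 ± 0.34 in SNU449-Axl-KO-ctrl and 4.96 ± 0.49 in SNU449-Axl-KO-Rego. MMP7 was high in both resistant populations, with 9.06 ± 0.31 in SNU449-Rego and 11.4 ± 0.35 in SNU449-Axl-KO-Rego against 5.41 ± 0.47 in SNU449-ctrl and 5.67 ± 0.34 in SNU449-Axl-KO-ctrl. LAMA4 showed the opposite order, with 4.89 ± 0.45 and 4.64 ± 0.15 in the resistant populations and 8.99 ± 0.36 and 8.34 ± 0.06 in the controls. SERPINE2 divided by Axl instead, with 10.8 ± 0.58 in SNU449-ctrl and 9.95 ± 0.18 in SNU449-Rego against 12.3 ± 0.07 and 12.1 ± 0.50 in the Axl-deficient cells. PCDH9 was high in SNU449-Axl-KO-ctrl alone, at 8.24 ± 1.01, with 4.58 to 4.73 in the other populations. PLIN2 was low in SNU449-Rego alone, at 8.41 ± 0.22, with 10.7 to 11.6 in the others.

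**Figure D3:**
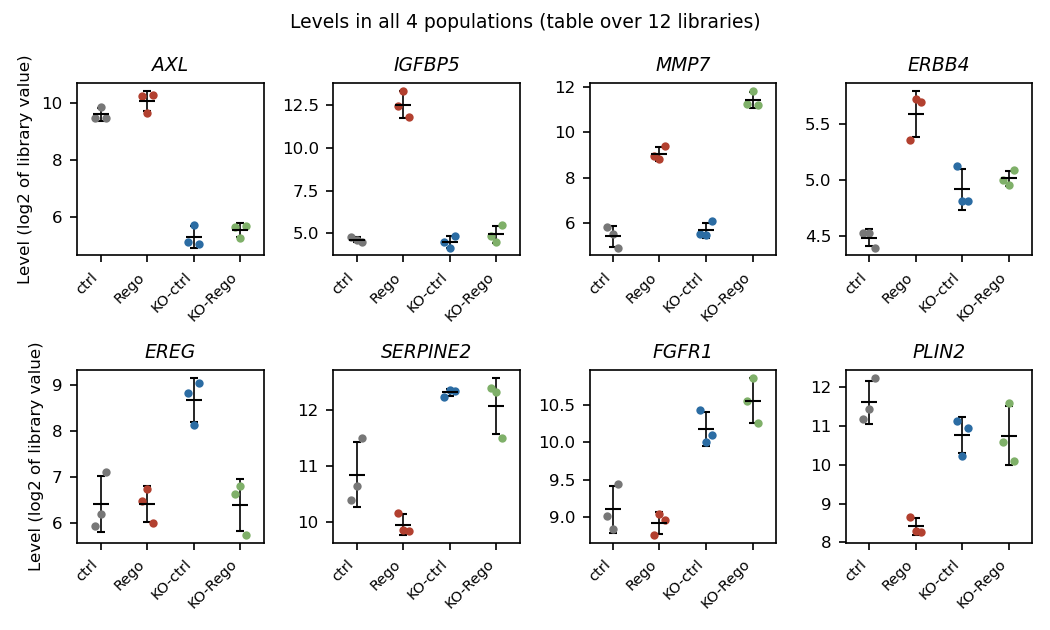
Levels (log2 of the library value, table over 12 libraries) of 8 genes in SNU449-ctrl, SNU449-Rego, SNU449-Axl-KO-ctrl and SNU449-Axl-KO-Rego, shown as ctrl, Rego, KO-ctrl and KO-Rego. Points are libraries, bars are mean ± SD (n = 3). AXL, SERPINE2 and FGFR1 divide by Axl, MMP7 by resistance, IGFBP5 and PLIN2 set SNU449-Rego apart, and EREG sets SNU449-Axl-KO-ctrl apart.

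For each called gene, the other populations were placed on the side of the midpoint between SNU449-Rego and SNU449-Axl-KO-ctrl on which they lay. In 133 of the 430 genes (30.9%) both of the others lay with SNU449-Axl-KO-ctrl, so that SNU449-Rego stood apart, and in 123 (28.6%) both lay with SNU449-Rego, so that SNU449-Axl-KO-ctrl stood apart. In 89 (20.7%) the populations divided by resistance and in 85 (19.8%) by Axl. Over all genes tested the shares were 29.8%, 30.1%, 20.7% and 19.4%, so that the called genes divided much like the background. Genes called higher included 26 (13.4%) that divided by Axl and 49 (25.3%) that divided by resistance, and genes called lower included 59 (25.0%) and 40 (16.9%). This placing is a description without a test.

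The distances of the 2 populations from SNU449-ctrl, were fitted in their own tables. They share the SNU449-ctrl libraries with each other and 3 libraries each with the comparison reported here, and are given side by side only. SDC2 was higher by 2.67 in SNU449-Rego and by 1.03 in SNU449-Axl-KO-ctrl than in SNU449-ctrl, and ANXA3 by 2.79 and 1.13, and all 4 values passed the adjusted p of 0.05 in limma. RIPK4 differed from SNU449-ctrl by 0.98 in SNU449-Rego and by -1.17 in SNU449-Axl-KO-ctrl, both called. IGFBP5 was 7.07 above SNU449-ctrl in SNU449-Rego (called). NRK differed by -0.04 in SNU449-Rego (not called) and by 2.34 in SNU449-Axl-KO-ctrl (called). For COL11A1 these values were 0.10 (not called) and 2.25 (called), and for CCBE1 -0.54 (not called) and 1.67 (called).

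Counts of called members in the gene lists below stand against 3.08% called over all genes (1.39% higher, 1.69% lower), with 6933 of the 13955 differences above 0. Of the 13955, 2758 had an unadjusted p under 0.05 in limma, and without the block 11.7% were called higher and 12.1% lower. Lists and members were chosen with earlier results of these data known, so the shares are description and do not measure enrichment. Most receptor tyrosine kinases and ligands, on which the study centred, were not called. The share called was 0% for ErbB receptors, 11.1% for kinases that Rego inhibits and 16.7% for other receptor tyrosine kinases. It was 18.2% for FGF genes, 20% for TAM receptors and ligands, and 33.3% for ErbB ligands and feedback inhibitors. These lists are short. Of the ErbB receptors, which bind ligands of the EGF family, limma called 0 of 4 with the block, with 2 at an unadjusted p under 0.05 and 2 called higher without the block. ERBB4 had levels of 6.46, 6.67 and 6.66 in SNU449-Rego and of 6.30, 6.09 and 6.09 in SNU449-Axl-KO-ctrl, at a mean of 12.2 counts. Its resistant libraries were all higher (difference 0.44, SE 0.14, adjusted p = 0.102 from limma). ERBB4 was called without the block, as were 23.9% of all genes. It was also called in the fit over all 12 libraries, where the difference was 0.68 on the scale of that table. The levels read as 19.9 counts in SNU449-Rego against fewer than 5. Compared with SNU449-ctrl, ERBB4 was higher by 0.78 in SNU449-Rego (adjusted p = 0.0166 from limma). Over 12 libraries it was at 5.60 ± 0.21 in SNU449-Rego and at 4.48 to 5.01 in the other populations. EGFR, with 9.82, 9.52 and 9.76 against 9.16, 9.46 and 9.23, was also higher in every library (difference 0.42, SE 0.18, adjusted p = 0.232 from limma). ERBB2 differed by 0.17 and ERBB3 by -0.15, neither called, and the sign of ERBB2 turned when libraries were centred on the spike-in RNAs.

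Ligands of the ErbB receptors were lower in SNU449-Rego in 3 of the 9 tested members of the list of ligands and feedback inhibitors, against 1.69% lower over all genes, and none was called higher. EREG, which codes for epiregulin, had levels of 7.09, 7.48 and 6.88 in SNU449-Rego and of 8.86, 8.46 and 9.05 in SNU449-Axl-KO-ctrl (difference -1.64, SE 0.21, adjusted p = 0.0017), or 6.56-fold in counts. AREG, which codes for amphiregulin, lies beside it on chromosome 4 and had 6.69, 6.92 and 6.88 against 8.07, 7.84 and 7.87 (difference -1.10, SE 0.15, adjusted p = 0.00284). NRG1, a neuregulin that binds ERBB3 and ERBB4, had 8.21, 8.57 and 8.40 against 9.45, 9.10 and 9.27 (difference -0.87, SE 0.18, adjusted p = 0.0247). No library of either group overlapped in these 3 genes. In the table over all populations EREG was at 8.66 ± 0.48 in SNU449-Axl-KO-ctrl and at 6.40 to 6.42 in the others, whereas NRG1 was at 8.18 ± 0.22 in SNU449-Rego and at 9.20 to 9.25 in the others.

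Among FGF receptors and ligands, 2 of 11 were lower and 0 higher, or 18.2% called against 3.08% over all genes. FGFR1, a receptor for FGFs and a target of Rego, had levels of 8.81, 9.12 and 9.03 in SNU449-Rego and of 10.30, 9.99 and 10.08 in SNU449-Axl-KO-ctrl (difference -1.14, SE 0.18, adjusted p = 0.00729), or 463 against 1138 counts. In the table over 12 libraries FGFR1 divided by Axl. Its levels were 9.10 ± 0.31 in SNU449-ctrl and 8.92 ± 0.14 in SNU449-Rego, against 10.2 ± 0.22 in SNU449-Axl-KO-ctrl and 10.6 ± 0.30 in SNU449-Axl-KO-Rego. FGF1 was lower by 0.62 on the log2 scale, from 24.8 counts to the floor, and was not called when limma was run without its trend of the variance on the mean level (the trend). FGF2, which codes for the basic FGF, was higher in every SNU449-Rego library, with 9.14 to 9.17 against 8.79 to 8.82, but did not pass the test (difference 0.35, SE 0.16, adjusted p = 0.246 from limma). In the table over 12 libraries FGF2 was highest in SNU449-ctrl, at 9.38 ± 0.07. It was at 9.13 ± 0.04 in SNU449-Rego, 8.70 ± 0.03 in SNU449-Axl-KO-ctrl and 9.04 ± 0.05 in SNU449-Axl-KO-Rego. FGFR1 was also the only called gene among the 9 tested kinases that Rego inhibits, and ABL1 had the next largest difference (0.50, adjusted p = 0.131 from limma). Of 12 other receptor tyrosine kinases, the ephrin receptors EPHA7 (-1.03) and EPHA4 (-0.75) were lower.

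Genes read as output of MAPK signaling, which lies downstream of these receptors, held no called member among 19 in limma with the block. At an unadjusted p under 0.05 were 6 (2758 of 13955 over all genes). Without the block 1 was called higher and 6 lower (11.7% and 12.1% over all genes). The median difference of this list was -0.26 against 0.00 over all genes. ETV5 (-0.56, adjusted p = 0.0586) and ETV4 (-0.53, adjusted p = 0.0589), both transcription factors induced by FGF and ERK signaling, came closest in limma, with no overlap between libraries. Of 27 YAP and TEAD targets and partners, RBMS3 was higher (0.58, not called with spike-in centring) and DLC1 lower (-1.06), which is 7.41% called against 3.08% over all genes. Of the 27, 20 lay above 0 (6933 of 13955 over all genes), with a median of 0.17.

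Mesenchymal genes moved in both directions. Of 17 EMT factors and mesenchymal markers, TAGLN and the homeobox factor PRRX1 (0.58, not called with spike-in centring or without the trend) were higher, and FAP (-1.01), ZEB2 (-0.65) and SNAI2 (-0.55) were lower. FAP codes for a protease of activated fibroblasts, and ZEB2 and SNAI2 (Slug) are repressors of E-cadherin. ZEB2 had levels of 6.73, 6.99 and 6.85 in SNU449-Rego and of 7.63, 7.38 and 7.52 in SNU449-Axl-KO-ctrl, without overlap. Vimentin (-0.02) and fibronectin (0.03) differed by less than 0.1. Of 15 epithelial junction genes and regulators, DSC3, a desmosomal cadherin, was higher, with 7.52, 7.61 and 7.73 against 6.29, 6.19 and 6.07 (difference 1.44, SE 0.14, adjusted p = 0.000292). PKP2, a plaque protein of desmosomes, had a difference of 0.54 (adjusted p = 0.116 from limma). Of 9 keratins, KRT80 was higher (0.92, not called over 12 libraries) and KRT222 lower (-0.75).

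The extracellular matrix lists held more called members than most lists, again without a common direction. They too were chosen with earlier results known, so their shares are description only. Of 29 collagen genes and collagen-processing enzymes, 6 (20.7%) were called, against 3.08% of all genes. COL1A2, a chain of type I collagen, had levels of 10.57, 10.94 and 10.51 in SNU449-Rego and of 9.50, 9.12 and 9.55 in SNU449-Axl-KO-ctrl (difference 1.28, SE 0.21, adjusted p = 0.00717). COL18A1, a collagen of basement membranes, was higher by 1.16 and the lysyl oxidase LOXL1 by 0.76. COL6A1, a chain of microfibrillar collagen, was lower, with 7.73, 8.05 and 8.18 against 9.52, 9.20 and 9.06 (difference -1.27, SE 0.19), as were COL11A1 and the lysyl hydroxylase PLOD2 (-0.98). COL1A1, the partner chain of COL1A2, had a difference of -1.12 that did not pass the test.

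Laminins and integrins gave 4 called genes of 23 (17.4%, against 3.08% over all genes). LAMA4 fell as described, and LAMA5, a laminin chain of epithelial basement membranes, was higher, with 8.42, 8.45 and 8.57 against 7.78, 7.75 and 7.64 (difference 0.76, SE 0.15, adjusted p = 0.0222, not called with spike-in centring). The fibronectin receptor subunit ITGA5 (-0.79) and the vitronectin receptor subunit ITGB3 (-0.87) were lower. Among 26 matrix proteases and their inhibitors, MMP7 and the membrane-bound MMP24 (0.76, not called with spike-in centring) were higher, and SERPINE2, ADAM19 (-1.73) and the metalloproteinase inhibitor TIMP1 (-0.75) were lower. ADAM19, a membrane-bound sheddase, varied between libraries, with 8.36, 7.32 and 7.43 against 8.78, 9.82 and 9.71 (SE 0.32, adjusted p = 0.0141).

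In the IGF system, 5 of 18 genes were called (27.8%, against 3.08% over all genes). Besides IGFBP5, IGFBP7 was higher, with 12.79, 12.59 and 12.26 in SNU449-Rego and 11.02, 11.23 and 11.55 in SNU449-Axl-KO-ctrl (difference 1.28, SE 0.23, adjusted p = 0.0135), which read as 6382 against 2546 counts. IGFBP2 was higher by 0.66. IGFBP1, the binding protein that the liver secretes during fasting, was lower by 1.43 on the log2 scale, from 96.3 counts to the floor. STC1, a glycoprotein hormone that inhibits the protease of IGF-binding proteins, was lower too, with 7.29, 7.50 and 6.91 against 8.66, 8.46 and 9.05 (difference -1.49, SE 0.21, adjusted p = 0.003).

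Secreted regulators of other pathways were also among the called genes. Of 30 genes of the Wnt pathway, 2 were lower, both secreted. WNT5A, a ligand of noncanonical Wnt signaling, had levels of 7.29, 7.50 and 7.17 against 8.83, 8.61 and 8.94 (difference -1.47, SE 0.17, adjusted p = 0.000871), and DKK1, an inhibitor of canonical signaling, had 10.29, 10.56 and 9.89 against 11.78, 11.52 and 12.18 (difference -1.58, SE 0.24, adjusted p = 0.00561). Of 39 genes of the TGF-beta and BMP pathway, INHBB, a subunit of activin and inhibin, was higher (1.30, 7.82-fold in counts). TGFBI, the activin antagonist FST and ID2, a target of BMP signaling (-0.78), were lower. Of 17 Notch genes, DLL3, a ligand that acts as an inhibitor, was higher (0.60, not called with spike-in centring), and JAG2 missed the threshold (0.59, adjusted p = 0.0551 from limma).

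**Figure D4:**
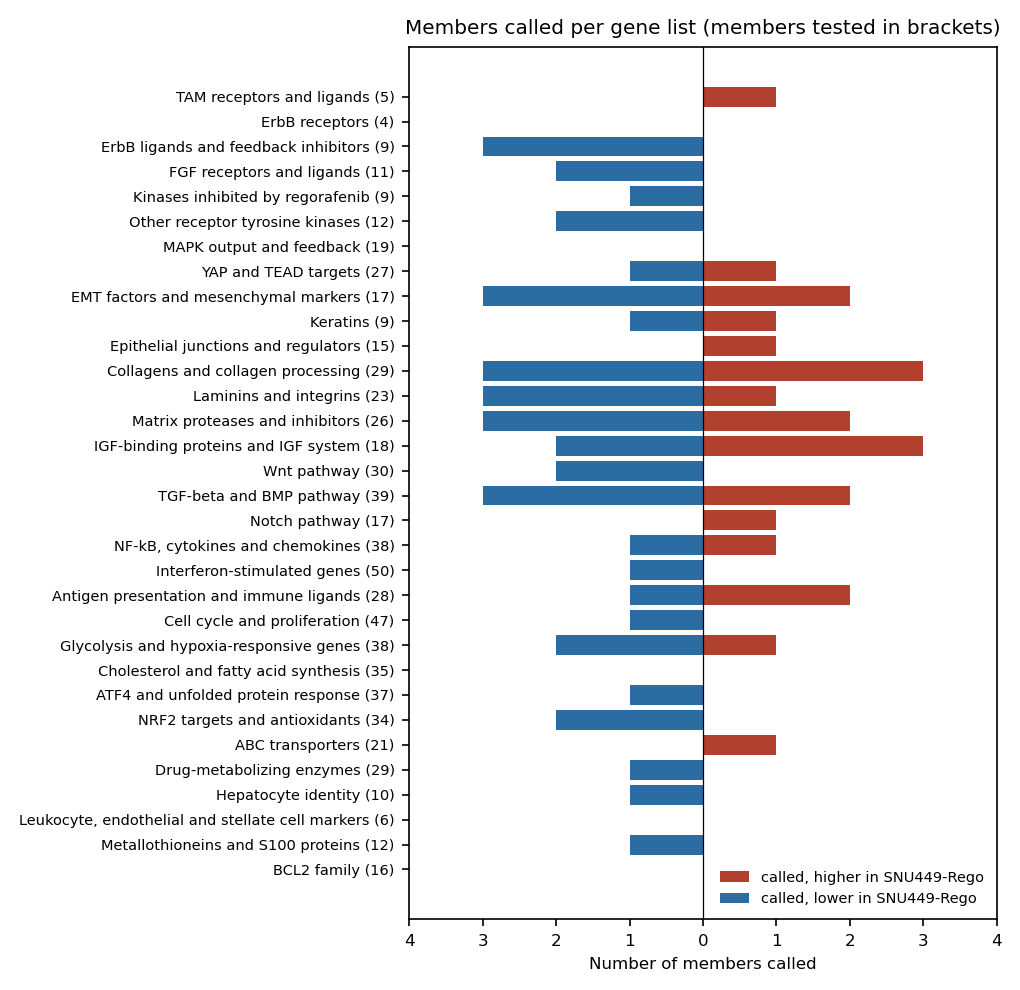
Number of called members in each of the 32 gene lists, with the number of members tested in brackets. Bars to the right (red) are members higher in SNU449-Rego, bars to the left (blue) members lower. ErbB ligands, FGF genes and Wnt genes hold lower members only, while collagens hold 3 in each direction.

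Among immune genes, the share called was 5.26% for NF-kB signaling, cytokines and chemokines, 2% for interferon-stimulated genes and 10.7% for antigen presentation, against 3.08% over all genes. Of 38 genes of NF-kB signaling, cytokines and chemokines, CCL2, a chemokine that attracts monocytes, was higher, with 7.81, 8.17 and 8.15 against 7.01, 6.64 and 6.67 (difference 1.27, SE 0.17, adjusted p = 0.00248). IL18, a cytokine of the IL-1 family, was lower, with 7.26, 7.35 and 7.35 against 8.52, 8.43 and 8.43 (difference -1.14, SE 0.15, adjusted p = 0.00185). Of 50 interferon-stimulated genes, IFIH1, a sensor of viral double-stranded RNA, was lower (-0.85). Of 28 genes of antigen presentation and immune ligands, the called members included the class I gene HLA-B, which was higher (0.91), and the class II gene HLA-DRB1, which was lower (-0.55) at 5.57 counts and not called without the trend. HLA genes of the same class are similar in sequence, and reads may be lost or misassigned among them, so these values are uncertain.

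Of 47 proliferation genes 1 was called (2.13%, against 3.08% over all genes), the replication helicase subunit MCM4 (-0.97, SE 0.21, adjusted p = 0.0338). The median of the list was -0.18 against 0.00 over all genes, and 17 of 47 lay above 0. Without the block 4 were called higher and 9 lower (11.7% and 12.1% over all genes). The related subunit MCM2 had a difference of -0.64 (adjusted p = 0.061 from limma). Of 38 glycolytic and hypoxia-responsive genes, EGLN3, a prolyl hydroxylase of HIF, was higher, with 7.43, 7.36 and 6.91 against 5.88, 5.95 and 6.39 (difference 1.16, SE 0.19, adjusted p = 0.00717). The neuronal-type glucose transporter SLC2A3 (-1.15) and EPAS1, which codes for HIF-2 alpha (-1.01), were lower. Of these 38 genes, 8 lay above 0, and the median was -0.17.

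Genes of cholesterol and fatty acid synthesis held 0 called of 35 in limma with the block. At an unadjusted p under 0.05 were 5 (2758 of 13955 over all genes). Without the block 6 were called higher and 2 lower (11.7% and 12.1% over all genes). The largest differences were those of the sterol enzymes MSMO1 (0.62, adjusted p = 0.0662) and TM7SF2 (0.45, adjusted p = 0.181 from limma). Of 37 genes of the ATF4 and unfolded protein response, MANF, a secreted protein of the endoplasmic reticulum, was lower (-0.87), and TRIB3 differed by 0.80 with overlapping libraries. Of 34 NRF2 targets and antioxidant genes, glutathione reductase GSR (-0.73) and the aldose reductase AKR1B1 (-0.72) were lower. The BCL2 family held 0 called of 16 in limma in either fit, with 1 at an unadjusted p under 0.05 (2758 of 13955 over all genes). BCL2L1, which codes for the survival factor Bcl-xL, had the largest difference (0.42, adjusted p = 0.235 from limma).

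Genes that handle drugs showed single calls. Of 21 ABC transporters, ABCA3, a lipid transporter of intracellular vesicles, was higher, with 7.10, 7.37 and 7.37 against 6.77, 6.49 and 6.49 (difference 0.69, SE 0.15, adjusted p = 0.0338, not called with spike-in centring), and the efflux pump ABCC3 had 0.63 (adjusted p = 0.0914 from limma). Of 29 drug-metabolizing enzymes, NNMT, which methylates nicotinamide, was lower, with 8.90, 8.99 and 9.06 against 10.54, 10.44 and 10.37 (difference -1.47, SE 0.17, adjusted p = 0.00112), or 462 against 1436 counts. ALDH1A1, a retinaldehyde dehydrogenase, had a difference of -0.91 and did not pass the test (adjusted p = 0.13 from limma). Of 10 tested hepatocyte genes, the fibrinogen chain FGG was lower (-0.69) at 15.0 counts and not called without the trend, and the neighbouring FGB had -0.61 with overlapping libraries. Of 12 metallothioneins and S100 proteins, MT1E was lower (-1.13, SE 0.24, adjusted p = 0.0317, not called over 12 libraries), and MT2A had -1.09 (adjusted p = 0.0699 from limma). Metallothionein genes are also similar in sequence to each other, and their values are uncertain in the same way as those of HLA genes.

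The differences were not spread evenly over the chromosomes. On chromosome 3, 631 of 777 genes (81.2%) were lower in SNU449-Rego, with a median difference of -0.21 against 0.00 over all genes, and 42 of its genes were called lower and 3 higher. WNT5A, MANF, UPK1B, CP and PLOD2 are among these 42. Chromosome 8, which holds FGFR1, NRG1, GSR, STC1, MCM4, DLC1 and SNAI2, had a median of -0.12 with 25 genes called lower and 4 higher. Chromosome 9 had the opposite sign, with 405 of 535 genes (75.7%) higher, a median of 0.18, and 22 called higher against 3 lower, PLIN2 among the latter. Chromosomes 4 (0.16), 20 (0.16) and 6 (0.14) were shifted upward as well, with 15, 15 and 23 genes called higher and 7, 3 and 6 lower.

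In the libraries, the median deviation of chromosome 3 from the mean of all 6 lay between -0.12 and -0.10 in SNU449-Rego and between 0.09 and 0.12 in SNU449-Axl-KO-ctrl. Same-numbered libraries mirror each other after the removal of the preparation effect, so that these are 3 free values and not 6. Among its 468 genes with a mean of at least 50 counts, where the scale is less flat, the median difference was -0.33. In the table over all populations these genes lay at a median of -0.01 in SNU449-Rego, 0.40 in SNU449-Axl-KO-ctrl and 0.23 in SNU449-Axl-KO-Rego relative to SNU449-ctrl. For chromosome 9 the same medians were -0.07, -0.39 and -0.02, for chromosome 4 they were -0.14, -0.40 and -0.06, and for chromosome 20 they were -0.03, -0.32 and -0.31. On these 4 chromosomes SNU449-Axl-KO-ctrl lay farther from SNU449-ctrl than SNU449-Rego did. Chromosome 6 (0.15 in SNU449-Rego, -0.16 in SNU449-Axl-KO-ctrl and -0.11 in SNU449-Axl-KO-Rego) and chromosome 8 (-0.12, 0.14 and 0.16) were shifted by similar amounts in opposite directions in SNU449-Rego and SNU449-Axl-KO-ctrl. Over all genes tested, the 10 Mb windows with the highest and the lowest median were 150000001 to 160000000 on chromosome 4, where 25 of 28 genes were higher (median 0.37), and 170000001 to 180000000 on chromosome 3 (26 genes, median -0.35). Among genes with a mean of at least 50 counts, the highest was the same window on chromosome 4 (9 genes, median 0.55), and the lowest was 20000001 to 30000000 on chromosome 3 (13 genes, median -0.45). Of 251 windows of at least 20 genes, 110 had a median of more than 0.1 in either direction. Copy number was not measured, and its part in these shifts was not tested.

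**Figure D5:**
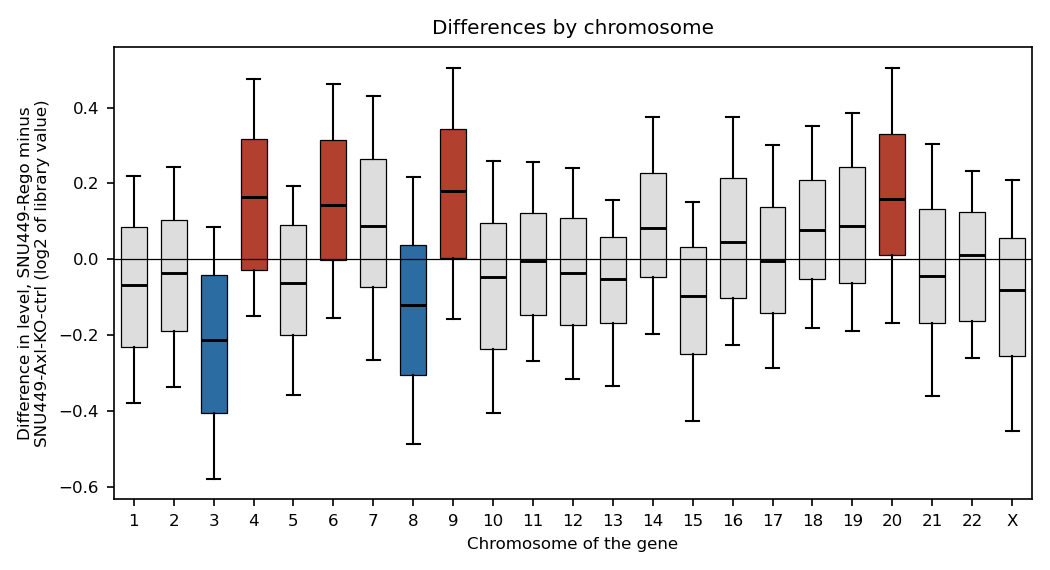
Differences in level, SNU449-Rego minus SNU449-Axl-KO-ctrl (log2 of the library value), of all genes tested on each chromosome. Boxes span the quartiles with the median as a line, and whiskers reach the 10th and 90th percentiles. Boxes are red where the median is above 0.1 (chromosomes 4, 6, 9 and 20) and blue where it is below -0.1 (chromosomes 3 and 8).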

How the data were processed

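RNA of 4 populations of the HCC line SNU449 was sequenced in 12 QuantSeq libraries, of which 6 are compared here. According to the methods and the submitters' processing notes, the authors trimmed reads with cutadapt 4.0, aligned them to GRCh38 with spike-in sequences using STAR 2.5.3a, counted them per gene (GENCODE), filtered low genes and compared groups in DESeq2, adjusting for preparation date. The deposited library values are whole numbers and were read as a score: rounded powers of 2 of the authors' batch-corrected, variance-stabilized levels. The signal per gene is the authors' mean normalized count (sum 4.39e+06 over 13955 genes), obtained with size factors. The authors' own fold changes, p-values and adjusted p-values were not used. The depth per library is unknown.

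Log2 of the values in the table of this pair of groups entered a limma fit (version 3.58.1, run in R 4.3.3, with an eBayes trend and the replicate number as a fixed block) without the 27 spike-in rows. A gene was called where its p, adjusted over all genes after Benjamini and Hochberg, was under 0.05. All adjusted p-values in the text come from limma. Since the preparation effect had been removed along the replicate number, the deviations of same-numbered libraries mirrored each other (correlation -0.999 to -1.000), and a fit without the block counts the removed effect as free. The fit was tested on simulated data. Read counts per group were interpolated from the curve of level against mean count, and above its last point 1 doubling was taken as 1 level up to a level of 14.

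Named are the 12 largest rises and 12 largest falls among called genes without overlap, genes the study examines, and up to 4 called members (or, under 2, the 2 largest) of each of 32 hand-written lists. Members and lists were chosen with earlier results of these data known. Lists are described by counts, with no test. Alternatives were no block, log2(value + 1), a mean count of at least 10, upper-quartile rescaling, spike-in centring, no trend, the 12-library tables, and leaving out replicates. Some genes that the rule names are not reported here.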

Additional observations from a re-analysis of the deposited data

How the results depend on the processing

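The direction of all 430 called genes was kept in each alternative in which they were fitted (406 of them with a mean count of at least 10), and the number of calls was not. For the rescalings, and for fits that changed only the block, the trend or the genes kept, this was fixed beforehand. Their differences stayed the same or moved by less than 0.497, the smallest size among called genes. For the pairing by replicate number, 3332 genes were called without the replicate block (1637 higher, 1695 lower). Spike-in centring gave 1451 (108 higher, 1343 lower). The fit over all 12 libraries gave 874 (419 and 455), and the same fit in the second table of 12 libraries called 867 genes (416 and 451). Leaving out both libraries of a replicate number gave 0 calls (0 higher, 0 lower) for each of the 3 numbers in limma, with 1347 to 1945 genes at an unadjusted p under 0.05, since 1 residual degree of freedom is left. Leaving out single libraries without the block, an alternative chosen after seeing the data, gave 1717 to 2098 calls (831 to 1032 higher, 882 to 1066 lower). Counts with log2(value + 1), a mean count of at least 10, upper-quartile rescaling and no trend were 430, 398, 469 and 454. Of the 73 named genes that were called, 73 were called without the block, 70 over all 12 libraries, 68 without the trend and 66 with spike-in centring. Calls lost in one or more of these included those of KRT80, MT1E and TAGLN (12 libraries), FGF1, FGG, HLA-DRB1 and PRRX1 (no trend), and ABCA3, DLL3, LAMA5, MMP24, PRRX1 and RBMS3 (spike-in centring). With 1 library left out and no block, 67 to 69 of the 73 were called. The remaining library of that number mirrors the one left out, so this is not an independent check. Among the calls lost in these fits were COL11A1, KRT80, PADI2 and TAGLN without replicate 1 of either group, ADAM19, HLA-B, MCM4, MT1E and PADI2 without replicate 2, and ADAM19, COL11A1, KRT80 and TAGLN without replicate 3. Neither ERBB2 nor GAS6 was called, and a sign turned for ERBB2 with spike-in centring (-0.049) and for GAS6 when libraries were left out, where its difference ran from -0.20 to 0.15. The placing of the other populations kept its 4 counts within 1.5 times in the other 12-library table. The flat scale at low counts and the unknown depth limit what can be seen of weakly expressed genes such as ERBB4.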

Other observations

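The genes of the mitochondrial genome, which were in no list, are described here by strand. Of its 35 tested genes, 27 are encoded in the plus strand of the reference and 8 in the minus strand. All 8 genes of the minus strand were lower in SNU449-Rego, with a median difference of -0.32 and 3 called (MT-ND6, MT-TP and MT-TY). Libraries of MT-TA (-0.30), MT-TC (-0.19) and MT-TS1 (-0.25) overlapped between the groups, and MT-TE had a mean of 4.16 counts. MT-ND6, a subunit of respiratory complex I and the only protein encoded on that strand, differed by -1.31 at 1564 normalized counts. Of the 27 genes of the plus strand, 15 were lower and 12 higher (median -0.03), and MT-RNR2 and MT-TT were called higher. The minus-strand genes other than MT-ND6 are tRNA genes. Among plus-strand tRNA genes, MT-TM (-1.08), MT-TF (-0.93) and MT-TL1 (-0.74) were lower without a call, whereas MT-TT (0.67) and MT-TD (0.40) were higher. Strand and gene class are thus not separated here. MT-RNR2, the large ribosomal RNA, lies at the top of the scale, where levels changed by 2.06 per doubling of the count and differences may be overstated. This slope rests on only 2 genes, MT-RNR1 and MT-RNR2 itself, and is uncertain. Against SNU449-ctrl, the minus-strand genes had a median of -0.05 in SNU449-Rego and 0.42 in SNU449-Axl-KO-ctrl, and the plus-strand genes had 0.32 and 0.33. These genes were picked out after their values were seen, and transcription, RNA stability and poly(A) priming were not measured.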
